A study of Mus musculus with 6 samples.

Results

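The 10 genes described here are *Slc2a1*, which encodes the glucose transporter GLUT1, and *Hk2*, *Pfkl*, *Aldoa*, *Tpi1*, *Gapdh*, *Pgk1*, *Pgam1*, *Eno1* and *Ldha*, which encode enzymes that carry glucose to lactate. They were chosen by name from the 53715 genes of the deposited tables. Of the 10, 9 were matched by symbol, and *Aldoa* was matched by its identifier ENSMUSG00000030695 because its symbol carries a suffix in the tables. All 10 had enough reads to be tested.

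The libraries came from osteoblasts grown from the calvarial cells of newborn C57BL/6J mice and kept for 7 days in osteogenic medium, which drives the cells towards bone-forming osteoblasts. There were 3 wild-type cultures (*Fam102a*+/+) and 3 knockout cultures (*Fam102a*Δ/Δ), and the study asked what the loss of *Fam102a* does to osteoblasts. The knockout mice descend from a cross of *Fam102a*-floxed mice with mice that carry Cre under the *Actb* promoter, so exons 2 and 3 are missing in every cell type and not in osteoblasts alone. The sources used here do not say whether the 3 libraries of a genotype came from separate animals, so p-values measure the spread between these libraries. The cDNA of total RNA came from the SMART-seq v4 chemistry, and an Ion Proton instrument gave the reads.

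Glycolysis splits glucose into pyruvate and yields ATP without oxygen, and lactate dehydrogenase turns pyruvate into lactate, which regenerates the NAD+ that the pathway consumes. Osteoblasts are known for aerobic glycolysis: they take up much glucose, chiefly through GLUT1, and release much of it as lactate although oxygen is present. Many genes of the pathway are known targets of the hypoxia-inducible factor HIF-1, which recognises the letters ACGTG or GCGTG, and several are known targets of Myc, whose E-box is CACGTG.

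The promoters of 4 of the genes are printed, among them that of *Hk2*, whose levels varied differently from those of the others. All 4 held ACGTG or GCGTG, and a relation of these letters to the levels was not tested. They are RefSeq windows of GRCm38.p6, 250 bases before to 50 after a transcript start, written on the strand of the gene. Capitals mark ACGTG or GCGTG on either strand (read as CACGT or CACGC on the other strand).
*Slc2a1*, chr4:119108495-119108794, plus strand: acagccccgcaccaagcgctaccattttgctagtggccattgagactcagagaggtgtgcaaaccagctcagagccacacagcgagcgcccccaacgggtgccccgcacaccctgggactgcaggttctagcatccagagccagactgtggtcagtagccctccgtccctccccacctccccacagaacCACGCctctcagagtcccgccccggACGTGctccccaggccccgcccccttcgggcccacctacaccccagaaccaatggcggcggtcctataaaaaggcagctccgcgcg
*Hk2*, chr6:82774405-82774704, minus strand: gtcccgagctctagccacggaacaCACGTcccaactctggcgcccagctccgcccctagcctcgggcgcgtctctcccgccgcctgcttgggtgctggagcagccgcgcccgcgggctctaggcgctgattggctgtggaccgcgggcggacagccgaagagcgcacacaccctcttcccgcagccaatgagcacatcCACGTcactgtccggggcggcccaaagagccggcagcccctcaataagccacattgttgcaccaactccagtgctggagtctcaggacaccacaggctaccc
*Pgk1*, chrX:106186850-106187149, plus strand: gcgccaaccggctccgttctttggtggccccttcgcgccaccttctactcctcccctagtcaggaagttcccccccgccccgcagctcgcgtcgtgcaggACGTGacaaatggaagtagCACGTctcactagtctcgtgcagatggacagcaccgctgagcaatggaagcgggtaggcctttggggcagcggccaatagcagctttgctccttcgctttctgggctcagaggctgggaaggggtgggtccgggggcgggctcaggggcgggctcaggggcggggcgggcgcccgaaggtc
*Ldha*, chr7:46845554-46845853, plus strand: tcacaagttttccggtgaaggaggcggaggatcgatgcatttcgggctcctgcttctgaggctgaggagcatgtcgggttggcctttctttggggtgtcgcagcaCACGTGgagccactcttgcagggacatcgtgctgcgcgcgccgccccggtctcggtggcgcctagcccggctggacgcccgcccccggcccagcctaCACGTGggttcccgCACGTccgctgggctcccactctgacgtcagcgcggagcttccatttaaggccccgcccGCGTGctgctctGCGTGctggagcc

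The *Slc2a1* window held both motifs once, and the *Hk2* and *Pgk1* windows held ACGTG 2 times each. The *Ldha* window held 2 copies of the full E-box CACGTG, in which ACGTG is read on both strands, with 1 further ACGTG and 2 GCGTG. All 10 genes had a window, 15 windows in all, and 13 of these held ACGTG or GCGTG, as did 43.8% of all 32851 windows of this length. The *Tpi1* window and 1 of the *Aldoa* windows, which are not printed, held neither. ACGTG was found in 8 of the 15 windows and in 19.6% of all windows. CACGTG was found in 1 of the 15 windows and in 7.15% of all windows. Some windows of *Aldoa* and of *Eno1* overlap, and a match is a run of letters and not a binding site. The 15 windows had 52.7 to 69% G and C, and the shares of all windows were not matched for this.

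Gene reads, which are exon and intron reads together, numbered 12212169 to 19985762 in the wild-type libraries and 12934473 to 21210150 in the knockout libraries. *Fam102a* had 170, 249 and 244 gene reads in the wild-type libraries and 185, 260 and 257 in the knockout libraries, and edgeR gave −0.04 as the log2 fold change (SE 0.127, adjusted p = 1.00). A count over the whole gene does not resolve the deleted exons, so it does not check the genotype labels. The summed level of 8 osteoblast markers was 14773 to 18263 CPM in wild-type and 15952 to 16887 CPM in knockout libraries, where CPM are gene reads relative to the TMM-scaled size of the library. The collagen genes *Col1a1* and *Col1a2* made up 97.5 to 98.8% of that sum. The other 6 markers, set apart after the values were seen, summed to 302 to 359.6 CPM in wild-type and 200.6 to 408 CPM in knockout libraries. *Bglap*, which encodes osteocalcin, had at most 53 reads and was not tested. *Alpl*, which encodes alkaline phosphatase, had a log2 fold change of −1.67 (adjusted p = 0.161, edgeR), and *Sp7*, which encodes osterix, one of −0.98 (adjusted p = 0.193, edgeR). DESeq2 called both lower (adjusted p = 4.5e-08 and 0.0037). *Runx2*, the early osteoblast factor, was 71.9 to 90.4 CPM in wild-type and 56.5 to 65.9 CPM in knockout libraries (log2 fold change −0.40, adjusted p = 0.603, edgeR). These 3 of the 8 markers had all knockout libraries below all wild-type libraries, against 5.61% of all genes. Of the 8 markers, 4 had log2 fold changes below 0 and 4 above 0, with a median of 0.009. Among the latter, *Dmp1* had 3.48, 2.67 and 2.33 CPM in the wild-type and 5.75, 5.63 and 2.36 CPM in the knockout libraries. The test covered 16391 genes, of which 8 had an adjusted p under 0.05, 3 of them higher and 5 of them lower.

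Knockout replicate 3 stood apart from the other libraries in the genes described here. The 10 genes took 0.180, 0.194 and 0.194% of the gene reads in wild-type replicates 1, 2 and 3. They took 0.193 and 0.226% in knockout replicates 1 and 2 and 0.384% in knockout replicate 3. Intron reads were 45.8% of the gene reads in that library and 46.4% in knockout replicate 1, where the 10 genes were lowest among the knockouts, against 52.2 to 54.5% in the other libraries. *Rn7s1*, a 7SL RNA that counts into these totals, took 15.8 to 16.6% of the gene reads in the wild-type libraries and 9.66, 13.3 and 11.4% in knockout replicates 1, 2 and 3. The part of both in the levels of the 10 genes was not tested. Results are therefore given with and without knockout replicate 3. In cultures of mixed cells, more RNA per cell and more cells of a type that is rich in an RNA cannot be told apart.

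The levels of the genes per length of transcript spanned more than an order of magnitude. In RPKM (exon reads relative to exon length and to the gene reads of the library, as deposited), *Gapdh* was highest in wild-type cells with 127 ± 11.3 (SD, n = 3), followed by *Pgam1* with 110.1 ± 12.4, *Aldoa* with 91.6 ± 7.31, *Eno1* with 89.1 ± 1.82 and *Ldha* with 87.8 ± 2.02. *Pgk1* with 50.03 ± 6.49 and *Tpi1* with 49.7 ± 7.04 came next. Low levels were found for the entry steps, namely *Pfkl* with 8.99 ± 1.33, *Slc2a1* with 5.03 ± 0.686 and *Hk2* with 2.91 ± 0.573. Neighbours from *Gapdh* down to *Ldha* overlapped between libraries, as did *Pgk1* and *Tpi1*. The steps from *Ldha* to *Pgk1*, from *Tpi1* to *Pfkl*, from *Pfkl* to *Slc2a1* and from *Slc2a1* to *Hk2* did not overlap. In knockout cells the order was similar, with *Gapdh* first at 182 ± 97.2 and *Hk2* last at 3.44 ± 0.265, and *Aldoa* moved from the third to the fifth place.

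**Figure D1:**
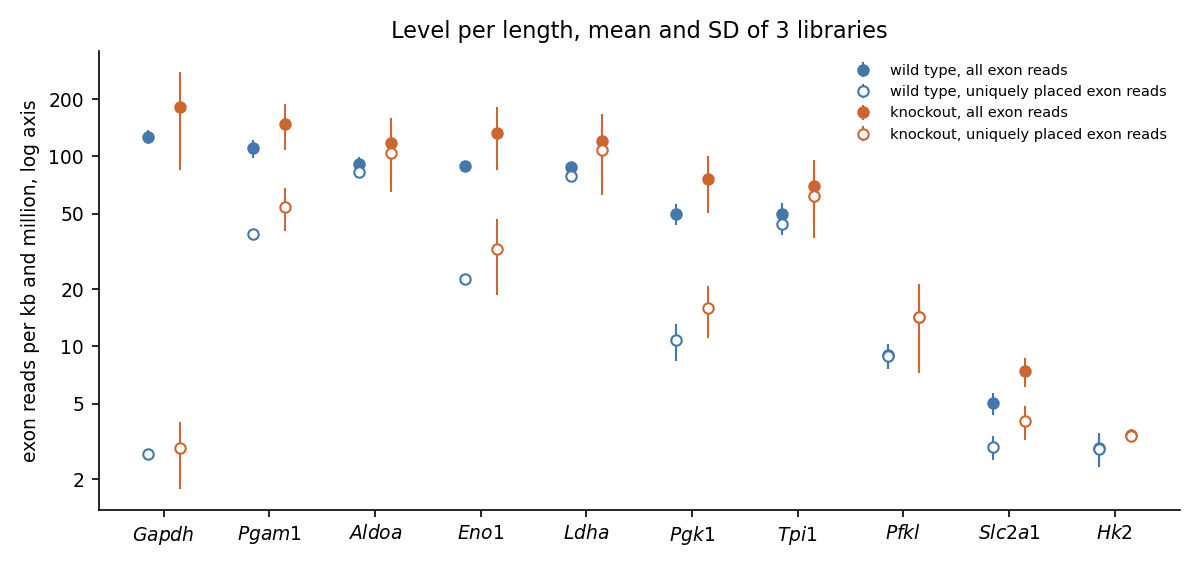
RPKM of the 10 genes on a log axis, as the mean and SD of 3 libraries per genotype, for all exon reads (filled) and for uniquely placed exon reads (open). *Gapdh* has the highest level on all exon reads (127 in wild-type cells) and the lowest on uniquely placed ones (2.71).

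How firmly a level can be read depends on how many reads could be placed at 1 site. *Gapdh*, *Pgk1*, *Pgam1* and *Eno1* have processed copies in the mouse genome, which arose from reverse-transcribed mRNA and repeat the coding sequence. Of the 50-base windows of the coding sequence, 93.5% of those of *Gapdh* were also found in annotated transcripts of other genes, 221 of them. The share was 100% for *Pgk1* (5 other genes), 100% for *Pgam1* (4 other genes) and 75.1% for *Eno1* (9 other genes). It was 25.2% for *Ldha*, 16.8% for *Aldoa*, 13.7% for *Tpi1*, 3.88% for *Slc2a1* and 0% for *Hk2* and *Pfkl*.

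A pair of windows of 1 *Gapdh* transcript shows the range, the first repeated in 71 other genes (coding bases 820 to 869) and the second in no other gene (coding bases 1 to 50). Positions count from 1 at the start codon of this transcript, which was taken because its coding sequence is the longest of the annotated *Gapdh* transcripts. Of its 1028 coding windows, 60 were found in no other gene, and other *Gapdh* transcripts were not looked at singly.
*Gapdh*, bases 820 to 869: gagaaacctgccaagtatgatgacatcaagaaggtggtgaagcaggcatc
*Gapdh*, bases 1 to 50: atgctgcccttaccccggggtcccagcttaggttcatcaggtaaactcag

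The share of uniquely placed reads followed this order in part. Only 2.07 to 3.42% of the gene reads of *Gapdh* were uniquely placed over the 6 libraries. The range was 21.7 to 25.0% for *Pgk1*, 23.0 to 27.0% for *Eno1* and 33.6 to 39.7% for *Pgam1*. It was 52.6 to 65.3% for *Slc2a1*, although few of its coding windows were shared. It was 83.6 to 91.3% for *Aldoa*, 86.0 to 90.8% for *Tpi1* and 84.9 to 93.3% for *Ldha*. *Hk2* (97.6 to 98.6%) and *Pfkl* (98.8 to 99.6%) were almost free of shared reads.

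No difference in these shares between the genotypes passed a test. In 2-sided exact permutation tests the smallest adjusted p over the 10 genes was 0.667, and 3 libraries against 3 allow no unadjusted p under 0.1. The largest difference was that of *Slc2a1*, with 63.5 ± 1.56% (SD, n = 3) in wild-type and 58.4 ± 5.15% in knockout libraries (exact permutation p = 0.1). The lowest wild-type library was at 62.6% and the highest knockout library at 62.4%, so the genotypes did not overlap. On uniquely placed exon reads *Gapdh* came last of the 10 genes in both genotypes, with 2.71 ± 0.0929 on the same scale in wild-type cells, while *Aldoa*, *Ldha* and *Tpi1* led with 82.5 ± 4.96, 79.0 ± 2.23 and 44.1 ± 5.77. The 218 genes of the tables that share windows with *Gapdh* had 5128 reads in all, against 41277 reads counted for *Gapdh*.

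**Figure D2:**
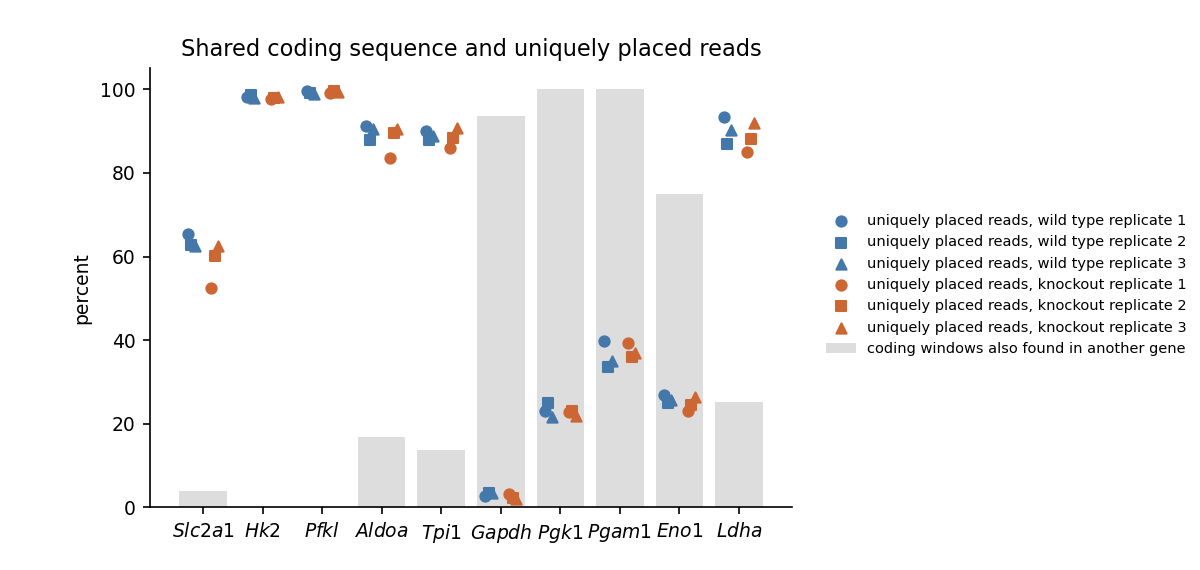
Percent of gene reads that were uniquely placed, for each gene and library (points), and percent of 50-base coding windows also found in another gene (grey bars). The uniquely placed share was lowest for *Gapdh* (2.07 to 3.42%) and highest for *Pfkl* (98.8 to 99.6%).

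Few of the reads came from introns. Intron reads were 9.29 to 22.1% of the gene reads of *Slc2a1* and 10.5 to 17.1% of those of *Hk2*, against 2.98 to 5.50% for *Pfkl* and at most 2.88% for each of the other 7 genes. The smallest adjusted p between genotypes was 1.00 over the 10 genes (2-sided exact permutation tests). The intron shares of *Tpi1* did not overlap, with 0.870 to 1.38% in wild-type and 0.574 to 0.795% in knockout libraries (exact permutation p = 0.1, the smallest possible).

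The comparison of the genotypes asked whether the loss of *Fam102a* changed the expression of these genes. None of the 10 was called at an adjusted p under 0.05, a rule that called 0.0488% of all genes (edgeR, quasi-likelihood, with p-values adjusted after Benjamini and Hochberg over 16391 genes). All 10 log2 fold changes were above 0, as were 49.8% of those of all genes, and they ran from 0.09 for *Hk2* to 0.52 for *Pfkl*. Their median was 0.35, against −0.0009 for all genes. An unadjusted p under 0.05 was reached by 1 of the 10 as higher, against 2.92% of all genes, and by 0 as lower, against 3.12%. For 0 of the 10 were all knockout libraries above all wild-type libraries, which held for 5.48% of all genes. Much of the size rested on 1 library: without knockout replicate 3, the log2 fold changes ran from −0.06 to 0.26 with a median of 0.10. Then 8 were above 0 (48.3% of all genes), 0 were called (0.0759%) and 0 reached an unadjusted p under 0.05 as higher (4.36%). Without knockout replicate 1, which had the lowest levels of the knockout libraries, the median was 0.57 and 9 of the 10 reached an unadjusted p under 0.05 as higher (2.35% of all genes), with 0 called (0% of all genes, edgeR). DESeq2 called 0 of the 10 (0.738% of all genes) and found 3 that reached an unadjusted p under 0.05 as higher (2.68%).

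**Figure D3:**
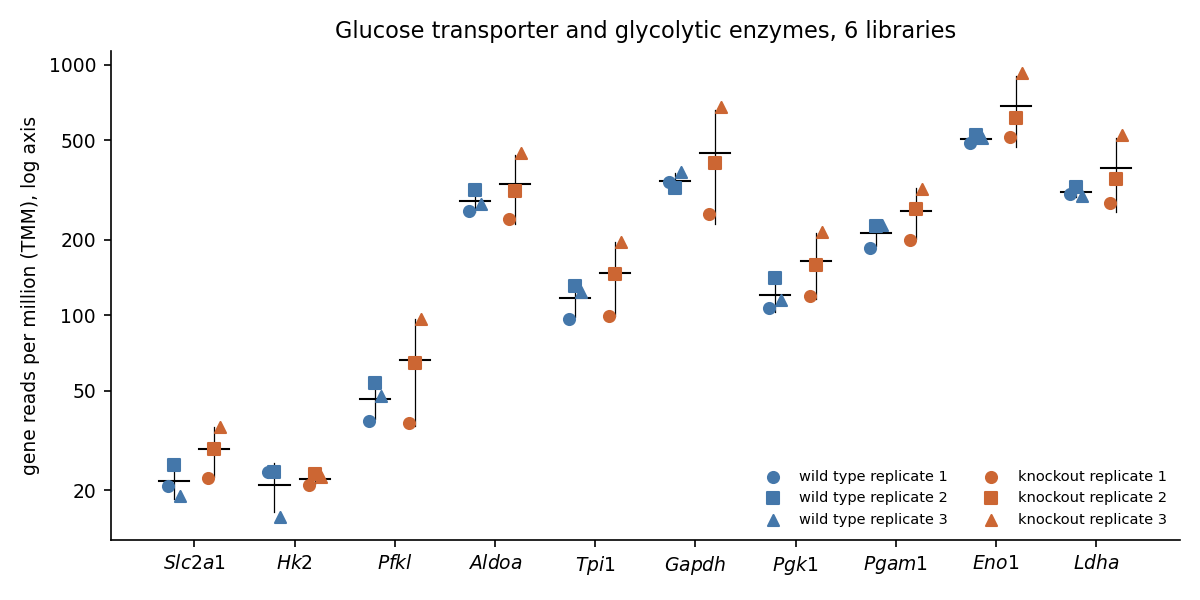
TMM-scaled CPM of gene reads on a log axis for the 10 genes, with a point for each library and the mean and SD of 3 libraries per genotype (lines). Knockout replicate 3 has the highest value in 9 of 10 genes, and knockout replicate 1 lies within or below the wild-type range in all 10.

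GLUT1, the product of *Slc2a1* (ENSMUSG00000028645, chromosome 4 of mm10 from 119108711 to 119137983), carries glucose across the plasma membrane. It had 20.8, 25.4 and 18.95 CPM in wild-type replicates 1, 2 and 3 and 22.4, 29.3 and 35.7 CPM in knockout replicates 1, 2 and 3. Knockout replicates 2 and 3 were above all wild-type libraries and knockout replicate 1 was among them. Its log2 fold change was 0.43 (standard error, SE, 0.184, adjusted p = 0.807, edgeR), the smallest p of the 10 genes. Without knockout replicate 3 it was 0.26 (adjusted p = 0.755, edgeR), and on uniquely placed gene reads 0.33 (adjusted p = 0.976, edgeR).

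Hexokinase 2, the product of *Hk2* (ENSMUSG00000000628, chromosome 6 from 82725025 to 82774454), phosphorylates glucose and so holds it in the cell. It had 23.8, 23.7 and 15.6 CPM in the wild-type and 21.0, 23.2 and 22.6 CPM in the knockout libraries. The knockout libraries lay inside the wild-type range. edgeR gave a log2 fold change of 0.09 (SE 0.170, adjusted p = 1.00), and *Hk2* was the only gene of the 10 whose highest library was not knockout replicate 3.

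*Pfkl* (ENSMUSG00000020277, chromosome 10 from 77986947 to 78010083) encodes the liver type of phosphofructokinase, the enzyme of the committed step of glycolysis. It had 37.9, 53.6 and 47.5 CPM in the wild-type and 37.0, 64.7 and 97.0 CPM in the knockout libraries. Knockout replicate 1 was below every wild-type library and knockout replicate 3 was at 2.09 times the wild-type mean, the highest such ratio of the 10 genes. The fitted log2 fold change was 0.52 (SE 0.351, adjusted p = 0.998, edgeR), and 0.13 without knockout replicate 3.

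Aldolase A, the product of *Aldoa* (chromosome 7 from 126795234 to 126800751), splits fructose bisphosphate into a pair of triose phosphates. It had 261, 316 and 279 CPM in the wild-type and 242, 314 and 443 CPM in the knockout libraries. Only knockout replicate 3 was above the wild-type range. Its log2 fold change was 0.22 (SE 0.210, adjusted p = 1.00, edgeR), and −0.04 without that library.

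*Tpi1* (ENSMUSG00000023456, chromosome 6 from 124810586 to 124814296) encodes triosephosphate isomerase, which interconverts the trioses. Its levels were 96.2, 130.4 and 123 CPM in the wild-type and 99.5, 146 and 196 CPM in the knockout libraries. Knockout replicates 2 and 3 exceeded the wild-type range. The log2 fold change of 0.33 (SE 0.243, adjusted p = 1.00, edgeR) became 0.07 without knockout replicate 3.

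Glyceraldehyde 3-phosphate dehydrogenase, the product of *Gapdh* (ENSMUSG00000057666, chromosome 6 from 125161715 to 125166467), is the enzyme that needs NAD+, and its mRNA is often used as a reference. It had 340, 323 and 372 CPM in the wild-type libraries and 254, 406 and 678 CPM in the knockout libraries. Knockout replicate 1 was the lowest and knockout replicate 3 the highest of all libraries. edgeR gave a log2 fold change of 0.37 (SE 0.330, adjusted p = 1.00). It was −0.06 without knockout replicate 3, so its direction rested on that library. On uniquely placed gene reads, at most 3.42% of its gene reads in any library, it was −0.05 (SE 0.208, edgeR). So small a part does not show the direction of the other reads.

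*Pgk1* (ENSMUSG00000062070, chromosome X from 106187100 to 106203699) encodes phosphoglycerate kinase 1, which makes the first ATP of the pathway. It had 107, 141 and 115 CPM in the wild-type and 119, 158 and 215 CPM in the knockout libraries. Each knockout library was above the wild-type library of the same number. The fitted log2 fold change was 0.44 (SE 0.214, adjusted p = 0.897, edgeR), and 0.20 without knockout replicate 3.

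Phosphoglycerate mutase 1, the product of *Pgam1* (ENSMUSG00000011752, chromosome 19 from 41911871 to 41918664), moves the phosphate of phosphoglycerate before enolase acts. It had 185, 228 and 229 CPM in the wild-type and 199, 265 and 321 CPM in the knockout libraries. Here too each knockout library was above its same-numbered wild-type library, as was also the case for *Slc2a1*, *Tpi1* and *Eno1*. Its log2 fold change was 0.29 (SE 0.181, adjusted p = 0.976, edgeR). On uniquely placed gene reads it was 0.35 (adjusted p = 0.737, edgeR).

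*Eno1* (ENSMUSG00000063524, chromosome 4 from 150236721 to 150248879) encodes enolase 1, which makes phosphoenolpyruvate. It was the most read gene of the 10, with 489, 522 and 509 CPM in the wild-type and 517, 612 and 928 CPM in the knockout libraries. The wild-type libraries lay close together, and knockout replicates 2 and 3 exceeded them. edgeR gave a log2 fold change of 0.44 (SE 0.207, adjusted p = 0.875), and 0.15 without knockout replicate 3.

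Lactate dehydrogenase A, the product of *Ldha* (ENSMUSG00000063229, chromosome 7 from 46841475 to 46855627), reduces pyruvate to lactate. It had 306, 326 and 298 CPM in the wild-type and 280.5, 351 and 526 CPM in the knockout libraries. Knockout replicate 1 was below and knockout replicates 2 and 3 were above every wild-type library. The fitted log2 fold change was 0.31 (SE 0.214, adjusted p = 0.997, edgeR), and 0.02 without knockout replicate 3.

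**Figure D4:**
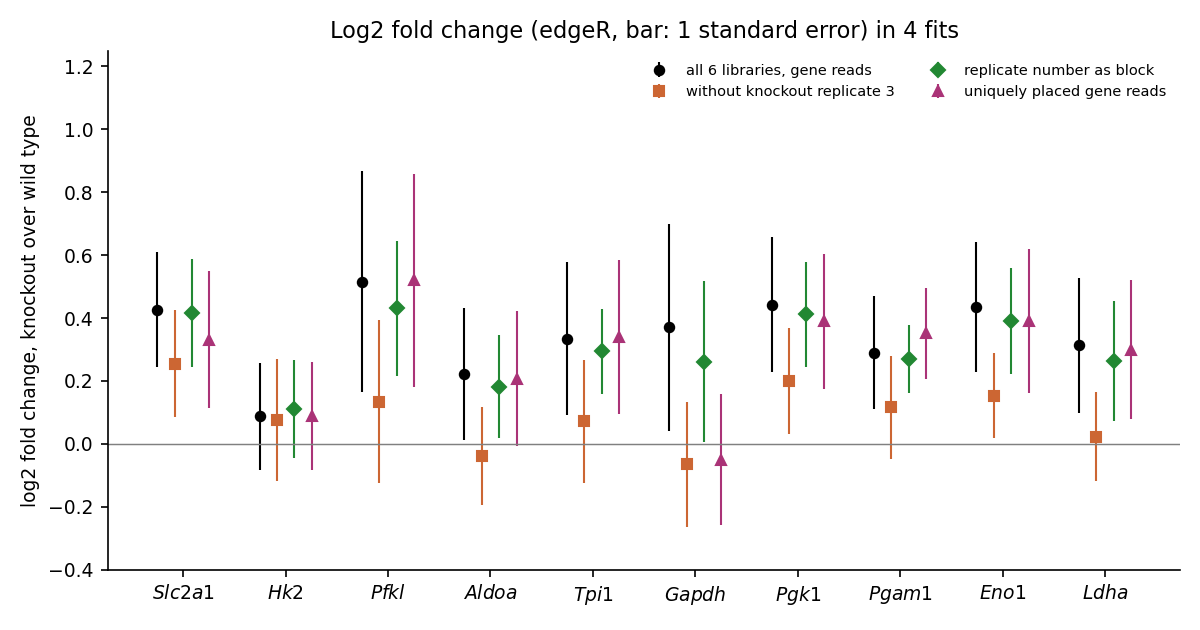
Log2 fold change of knockout over wild type for the 10 genes from edgeR, with bars of 1 standard error, in 4 fits. With all 6 libraries the values run from 0.09 to 0.52, without knockout replicate 3 from −0.06 to 0.26, and *Gapdh* is at −0.05 on uniquely placed gene reads.

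The libraries of the same replicate number deviated together, so they were also compared number by number. The median log2 difference of the 10 genes was 0.01 for replicate 1, with a range from −0.42 for *Gapdh* to 0.16 for *Pgk1*. It was 0.19 for replicate 2, with a range from −0.03 to 0.33 and 8 genes above 0. It was 0.84 for replicate 3, with a range from 0.49 to 1.03 and all 10 genes above 0. A fit blocked on the number called 0 of the 10 (smallest adjusted p = 0.565, edgeR), against 0.0549% of all genes, and 3 reached an unadjusted p under 0.05 as higher, against 4.09%. These were *Slc2a1* with a log2 fold change of 0.42, *Pgk1* with 0.41 and *Pgam1* with 0.27. Replicates 2 and 3 carry the label of 1 sequencing run. Within them the median of the 10 genes was 0.51, 6 reached an unadjusted p under 0.05 as higher (2.68% of all genes) and 0 were called (0% of all genes), and replicate 1 has 1 library per genotype and no test.

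Across the 6 libraries 9 of the 10 genes varied together. The correlation of a gene with the mean of the other 9 (log2 CPM, n = 6 libraries) was Pearson's r = 0.89 for *Gapdh* to 0.98 for *Pfkl*, and r = 0.24 for *Hk2*. These 9 genes share knockout replicate 3 as their highest library, and no p is given. Of the 16381 other genes tested, those closest to the mean of the 10 were *Atg10* (r = 0.997), which encodes an autophagy enzyme, *Zfp467* (r = 0.990), a zinc finger factor, and *Rab15* (r = 0.989), a Rab GTPase.

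Further isoforms were compared for 9 of the 10 genes, all but *Tpi1*. By RPKM, *Aldoa* made up 99.1 to 99.6% of the aldolases, *Pgk1* at least 99.7% of the phosphoglycerate kinases, *Pgam1* 96.3 to 98.9% of the mutases and *Eno1* 95.3 to 97.1% of the enolases over the 6 libraries. *Ldha* made up 74.1 to 87.1% of the lactate dehydrogenases and *Slc2a1* 63.7 to 82.8% of the transporters *Slc2a1*, *Slc2a3* and *Slc2a4*. *Pfkl* made up 40.1 to 59.9% of the phosphofructokinases, and was above *Pfkm*, the muscle type, in 5 of 6 libraries. *Hk2* was a minor hexokinase with 25.5 to 35.3%, and *Hk1*, the form found in most tissues, was above it in all 6 libraries.

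The ratio of a gene to its paralogue was compared for 8 pairs, and all 8 overlapped between the genotypes (2-sided exact permutation tests, smallest p = 0.2, smallest adjusted p = 0.533). *Hk2* to *Hk1* was 0.615 ± 0.131 (SD, n = 3) in wild-type and 0.637 ± 0.0642 in knockout cells. *Pfkl* to *Pfkm* was 1.03 ± 0.225 and 1.54 ± 0.475. *Ldha* to *Ldhb*, whose product favours the conversion of lactate to pyruvate, was 3.95 ± 0.971 and 5.13 ± 1.70. *Slc2a1* to *Slc2a3*, which encodes GLUT3, was 14.05 ± 3.05 and 10.5 ± 3.61. For the other pairs the ratio of the knockout to the wild-type mean was 1.21 for *Pfkl* to *Pfkp*, 0.729 for *Aldoa* to *Aldoc*, 1.66 for *Pgam1* to *Pgam2* and 0.903 for *Eno1* to *Eno2*.

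Among 22 other glycolysis genes 17 were tested and 0 were called. As higher genes 3 reached an unadjusted p under 0.05, against 2.92% of all genes, and none did as a lower one, against 3.12%. The median log2 fold change was 0.06, against 0.35 for the 10 genes. *Bpgm*, which makes the 2,3-bisphosphoglycerate of red cells, had 13.7, 10.04 and 10.9 CPM in the wild-type and 25.5, 25.4 and 11.96 CPM in the knockout libraries. Knockout replicate 3 was its lowest knockout library, unlike the 10 genes, and its log2 fold change of 0.86 (adjusted p = 0.738, edgeR) was 1.14 without that library. *Eno2*, the neuronal enolase, had 4.84, 4.93 and 5.07 CPM in the wild-type and 6.76, 6.03 and 10.8 CPM in the knockout libraries, which did not overlap (log2 fold change 0.67, adjusted p = 0.756, edgeR). *Pfkp*, the platelet type of phosphofructokinase, did not overlap either, with 39.0 to 42.9 CPM in the wild-type and 46.9 to 51.9 CPM in the knockout libraries (log2 fold change 0.25, adjusted p = 0.761, edgeR). All knockout libraries were above all wild-type libraries for 2 of the 17 genes, against 5.48% of all genes. In the blocked fit 5 of the 17 reached an unadjusted p under 0.05 as higher, against 4.09% of all genes. As lower 1 reached it, against 696 of 16391 genes, and 0 were called.

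Lactate leaves the cell through monocarboxylate transporters. *Slc16a3*, which encodes the exporter MCT4, had 2.80, 6.01 and 2.23 CPM in the wild-type and 3.16, 9.19 and 21.9 CPM in the knockout libraries. Its log2 fold change was 1.63 (SE 0.784, adjusted p = 0.924, edgeR), and 0.76 without knockout replicate 3. *Slc16a1*, which encodes MCT1, was 15.3 to 16.9 CPM in the wild-type and 11.9 to 14.5 CPM in the knockout libraries (log2 fold change −0.30, adjusted p = 0.828, edgeR). *Pfkfb3*, whose product makes the activator of phosphofructokinase, had a log2 fold change of 0.27 (adjusted p = 0.967, edgeR). Of the 9 regulators and exporters, all tested, 0 were called, against 0.0488% of all genes (edgeR). None passed an unadjusted p of 0.05, against 2.92% of all genes as higher and 3.12% as lower. All knockout libraries were below all wild-type libraries for 1 of the 9, *Slc16a1*, against 5.61% of all genes, and above them for 0, against 5.48%.

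For the routes that share metabolites with glycolysis, the median log2 fold change was −0.02 for 13 genes of pyruvate entry into mitochondria. It was 0.0003 for 8 genes of the pentose phosphate pathway and 0.04 for 16 genes of the citric acid cycle. In these lists 0 genes passed an unadjusted p of 0.05 (edgeR), against 2.92% of all genes as higher and 3.12% as lower. In pyruvate entry, 4 of the 13 genes had all knockout libraries below all wild-type libraries, *Mpc1*, *Mpc2*, *Pdp1* and *Pdp2*, and 1 had them above, *Pdha1*, against 5.61% and 5.48% of all genes (*Mpc2* and *Pdha1* are named after their values were seen). In the citric acid cycle 1 of the 16 genes had them above and 1 below, and in the pentose phosphate pathway 0 of the 8 had either. The smallest p of each list was that of *Mpc1*, a subunit of the mitochondrial pyruvate carrier, *Pgls*, a lactonase of the pentose phosphate pathway, and *Cs*, citrate synthase. Their log2 fold changes were −0.22, 0.21 and 0.22 (adjusted p = 0.924, 0.953 and 0.830, edgeR). Of 7 gluconeogenesis genes 3 were tested, with a median of −0.15, and *Pck2*, the mitochondrial carboxykinase, was at −0.24 (adjusted p = 1.00, edgeR).

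The hypoxia response outside glycolysis was examined because HIF-1 acts on both sets. Of 14 genes 13 were tested, 0 were called, and 1 was higher at an unadjusted p under 0.05, against 2.92% of all genes. This was *Vegfa*, an angiogenic factor, with 39.4, 31.0 and 27.6 CPM in the wild-type and 41.8, 47.0 and 49.7 CPM in the knockout libraries (log2 fold change 0.50, SE 0.145, adjusted p = 0.566, edgeR). It was 0.44 without knockout replicate 3. The median of the 13 genes was 0.18, with 10 above 0 (49.8% of all genes). Without knockout replicate 3 it was −0.12, with 5 above 0 (48.3% of all genes). *Egln3*, a prolyl hydroxylase that marks HIF for degradation, had 1.28 to 1.93 CPM in 5 libraries and 5.90 CPM in knockout replicate 3, and its log2 fold change of 0.78 (adjusted p = 1.00, edgeR) was −0.34 without that library. *P4ha1*, a collagen prolyl hydroxylase, was 72.0 to 87.4 CPM in 5 libraries and 106 CPM in knockout replicate 3. *Ndrg1*, a stress-responsive gene, was at −0.46 (adjusted p = 0.932, edgeR).

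The medians of the 10 genes and of the hypoxia genes were both highest in knockout replicate 3, although not every gene was. *Hk2* lay inside the wild-type range there. What the lists share in this library was not tested. The median log2 difference of the 10 genes from the wild-type mean was −0.09, 0.16 and −0.01 in wild-type replicates 1, 2 and 3 and −0.12, 0.29 and 0.76 in knockout replicates 1, 2 and 3. In knockout replicate 3, 3.66% of all genes were at or above 0.76. For the 13 hypoxia genes the median was −0.21, −0.02 and 0.49 in the knockout libraries, and 10 of the 13 were highest in knockout replicate 3. The others were *Ndrg1* and *Adm*, highest in wild-type replicate 3, and *Ddit4*, highest in wild-type replicate 2. The share of all genes that were highest in knockout replicate 3 was not determined, so the count has no background beside it. The 16 citric acid cycle genes had medians from −0.09 to 0.10 in the 6 libraries. Chosen after their values were seen, *Pdk1*, a kinase that inhibits pyruvate dehydrogenase, had 6.61 to 10.8 CPM in the other 5 libraries and 23.3 CPM in knockout replicate 3, and *Bnip3*, a mitophagy receptor, had 12.7 to 16.2 and 29.9 CPM. They do not stand for their lists. The 13 genes of pyruvate entry, *Pdk1* among them, had a median of 0.10 in knockout replicate 3, and 3 of the 13 were highest there.

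**Figure D5:**
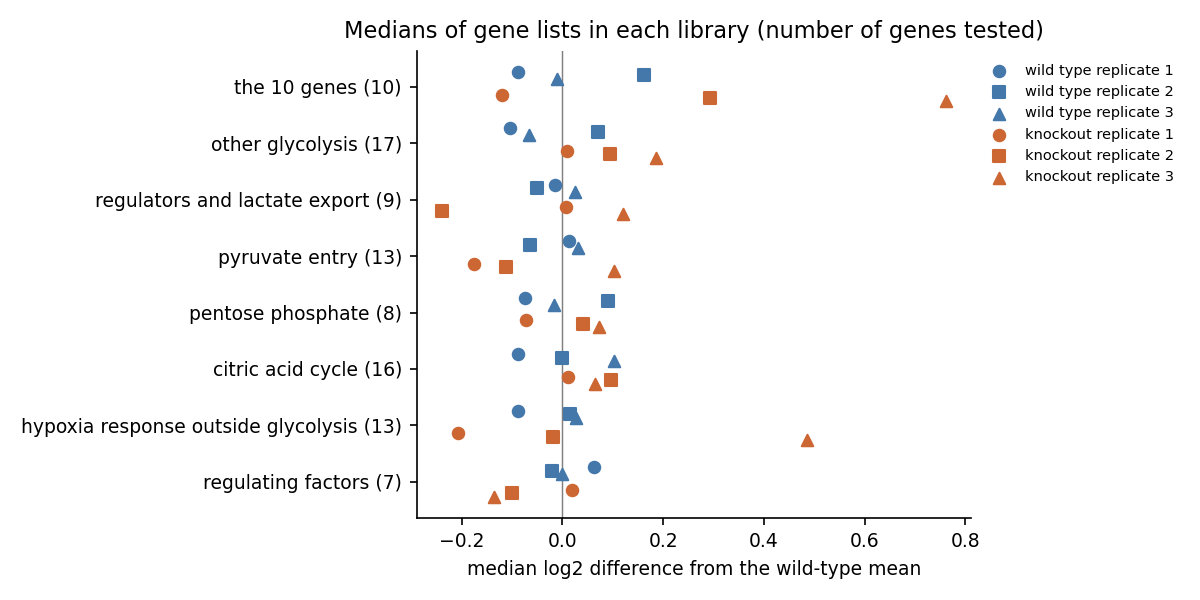
Median log2 difference from the wild-type mean for 8 gene lists, with a point for each library and the number of genes tested in brackets. The 10 genes reach 0.76 and the hypoxia genes 0.49 in knockout replicate 3, and the citric acid cycle genes stay between −0.09 and 0.10.

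Of 7 factors known to regulate these genes, 0 were called. An unadjusted p under 0.05 was reached by 1 as higher (2.92% of all genes) and by 2 as lower (3.12%). *Hif1a*, the oxygen-sensitive subunit of HIF-1, had 88.8, 81.0 and 76.4 CPM in the wild-type and 102, 95.0 and 103 CPM in the knockout libraries, which did not overlap (log2 fold change 0.28, adjusted p = 0.757, edgeR). *Max*, the partner of Myc, was 46.1 to 47.9 CPM in the wild-type and 34.1 to 42.5 CPM in the knockout libraries (−0.30, adjusted p = 0.757, edgeR). *Mlxip*, a glucose-sensing factor, was 29.8 to 33.1 CPM in the wild-type and 22.6 to 24.5 CPM in the knockout libraries (−0.40, adjusted p = 0.452, edgeR). Over the 7 factors, 1 was higher without overlap, against 5.48% of all genes, and 2 were lower without overlap, against 5.61%. *Epas1*, which encodes HIF-2 alpha, was at −0.28 (adjusted p = 0.828, edgeR). The mRNA level of *Hif1a* does not measure its protein, which is regulated by degradation.

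Markers of other cell types differed between libraries. The 6 macrophage markers summed to 754 to 2120 CPM in the wild-type and 366 to 1643 CPM in the knockout libraries, highest in wild-type replicate 2. In knockout replicates 1, 2 and 3 they summed to 366, 1221 and 1643 CPM, the same order of these libraries as for 9 of the 10 genes. All 6 were second highest in knockout replicate 3. Against the wild-type library of the same number they differed by −1.08 to −0.69 on the log2 scale in replicate 1, −1.06 to −0.45 in replicate 2 and 0.69 to 1.37 in replicate 3. The 6 chondrocyte markers summed to 2174 to 2706 CPM in the wild-type and 1059 to 2237 CPM in the knockout libraries, lowest in knockout replicate 3. Among them *Comp*, a cartilage matrix protein, was called lower (log2 fold change −1.51, adjusted p = 0.0260, edgeR, 0.0522 without knockout replicate 3). The adipocyte list summed to 59.5 to 86.6 and 39.8 to 63.5 CPM in the wild-type and knockout libraries. In knockout replicates 1, 2 and 3 it summed to 39.8, 55.5 and 63.5 CPM, the same order as for the macrophage markers. The endothelial list summed to 41.9 to 73.8 and 9.09 to 91.8 CPM, of which *Pecam1* made up 8.70 to 84.3%. At least 98.96% of the gene reads of *Pecam1* were intron reads in every library. Without it, the other 4 endothelial markers summed to 10.1 to 14.7 CPM in the wild-type and 8.30 to 14.4 CPM in the knockout libraries.

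The skeletal muscle list summed to 24.9 to 40.6 CPM in the wild-type and 41.1 to 68.5 CPM in the knockout libraries, highest in knockout replicate 1, and *Des*, which muscle cells and some stromal cells express, was at 0.62 (adjusted p = 0.816, edgeR). *Myod1*, *Myog*, *Myh3* and *Ckm* had at most 7 reads each in a library. The erythroid list had 4 to 20 reads in all, with *Hba-a1* and *Hba-a2* at 0 in every library. The part of these cells in the levels of the 10 genes was not tested.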

How the data were processed

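Per the labels and the study's methods, total RNA of 3 *Fam102a*+/+ and 3 *Fam102a*Δ/Δ osteoblast cultures was sequenced after 7 days. With CLC Genomics Workbench the authors aligned reads to mm10 and made a table of gene counts for each library. The handling of reads with several sites, the use of strand and the annotation were not given in any source used here. The deposited read counts per gene (gene, exon, intron and uniquely placed reads) were not normalized. The deposited RPKM are exon reads relative to exon length and to the gene reads of the library, as was checked by recomputing them.

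The analysis of gene reads, given for 53715 genes, used edgeR 4.0.16 (R 4.3.3). Its filter (minimum count 10, minimum total 15, large n 10, minimum proportion 0.7) left 16391 genes. TMM factors scaled the libraries. The test was quasi-likelihood with the robust option, adjusted after Benjamini and Hochberg, with calls at 0.05. Each standard error was taken as |log2 fold change| divided by √F, and a positive log2 fold change means a higher level in *Fam102a*Δ/Δ. Single values were compared by 2-sided exact permutation tests over the 20 assignments of 3 libraries against 3. Gene lists were described by counts and medians and were not tested as sets. Shared sequence was measured in GENCODE M21 transcripts, and promoters are RefSeq windows. All 10 genes had 245 reads or more in every library. The fit was tested on simulated data.

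The members and lists were chosen with earlier results of these data known. The genes named are the 10 members, the called genes and up to 4 genes with the smallest unadjusted p of every other list, the paralogues in the ratios, 3 genes by likeness, and *Fam102a*, *Sp7* and *Alpl*. As a check of pairing by replicate number, deviations over 14259 genes of same-numbered libraries from their group means correlated with r = 0.35, 0.22 and 0.24, and those of other pairs with r from −0.29 to 0.07, so the pairing comes from the data. Deviations within a group add up to 0, so a positive r for a same-numbered pair by itself lowers those of other pairs. The blocked fit used the same data. Alternatives were RLE and upper quartile factors, total reads without factors, omission of the filter, a minimum of 10 reads per library, DESeq2 1.42.0, edgeR without the robust option, other read classes, limma 3.58.1 on log2(RPKM + 0.1) and log2(RPKM + 1), the block, libraries of replicates 2 and 3 alone, and omission of each library.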

Additional observations from a re-analysis of the deposited data

How the results depend on the processing

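None of the 10 genes was called under any of the 20 alternatives, and the lowest adjusted p was 0.0741 for *Pgk1* without a filter (edgeR). Their median log2 fold change stayed between 0.28 (replicate block) and 0.51 (replicates 2 and 3 only), and between 0.10 and 0.57 when 1 library was left out. Of 200 values of the 10 genes 5 changed sign. With 1 library left out, *Hk2* ran from −0.091 (without wild-type replicate 3) to 0.18, *Aldoa* from −0.040 (without knockout replicate 3) to 0.41 and *Gapdh* from −0.065 (without knockout replicate 3) to 0.65. *Gapdh* was also at −0.050 on unique gene reads and −0.041 on unique exon reads.

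The genes of the 10 that were higher at an unadjusted p under 0.05 numbered 1 in the reported fit (2.92% of all genes), 3 with the replicate block (4.09%), 3 by DESeq2 (2.68%), 4 on total reads only (6.44%), 6 without a filter (2.79%), 6 in replicates 2 and 3 only (2.68%), 0 without the robust option (3.09%), and 3 and 2 by limma with pseudocounts of 0.1 and 1 (6.39 and 6.57%). Leaving out 1 library gave 0 to 9 (1.77 to 4.36%). Of the other glycolysis genes 3 were higher, against 5 on total reads only, by limma with a pseudocount of 0.1 and with the block, 0 in replicates 2 and 3 only and 0 to 3 with 1 library left out. None was lower, against 1 without a filter, on exon, unique gene and unique exon reads and with the block, and 0 to 1 with 1 library left out.

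Over all genes 3 were called higher, against 6 with RLE factors, 13 on total reads only, 169 without a filter, 1 with at least 10 reads in every library, 49 by DESeq2, 5 with the block, 0 by limma with either pseudocount, 0 in replicates 2 and 3 only and 0 to 5 with 1 library left out. Of those called lower there were 5, against 171 without a filter, 72 by DESeq2, 3 without the robust option, 8 on exon reads, 0 by limma with either pseudocount, 0 in replicates 2 and 3 only and 0 to 8 with 1 library left out. The causes were not tested. Total reads alone shift the median of all genes by 0.13 and log2(RPKM + 0.1) by 0.11.

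Among the other named genes, *Fam102a* changed sign on total reads (0.094), *Pfkm* on total reads (0.022) and with limma (0.0099 and 0.0086), and *Ldhb* on total reads (0.0015) and with limma (0.046 and 0.044). With 1 library left out, *Egln3* ran from −0.34 to 1.13, *Hk1* from −0.012 to 0.15 (both lowest without knockout replicate 3), *Pfkm* from −0.27 to 0.076 and *Ldhb* from −0.28 to 0.074 (both highest without wild-type replicate 3). The ratio of *Pgam1* to *Pgam2* in knockout over wild-type cells was 2.27 without wild-type replicate 3. The call of *Comp* was lost in 9 of 20 alternatives. Calls were gained in 11 values: *Bpgm*, *Vegfa*, *Des*, *Pparg*, *Alpl* and *Sp7* without a filter, *Alpl*, *Sp7* and *Col9a1* by DESeq2, *Alpl* on total reads and *Col9a1* without knockout replicate 2.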
